A study of Mus musculus with 45 samples.

Results

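Inflammatory monocytes (iMo) taken from mouse lung 6h after an intraperitoneal (ip) injection of lipopolysaccharide (LPS) were compared with iMo at 0h. The comparison uses 4 of the 45 libraries of the series, chosen by cell type, route and time in their titles: A161219 and B161219 at 6h, and A171227 and B171227 at 0h. All cells came from lungs of C57BL/6J mice and were isolated by flow cytometry, and RNA of small numbers of sorted cells was sequenced with a modified Smart-seq2 protocol, a method that copies full-length polyadenylated RNA. The series also holds iMo at 2 and 20h of ip LPS, interstitial macrophages (IM) and alveolar macrophages (AM) at the same times, and libraries after intranasal LPS. The LPS dose is not given in the sources used here. No label says whether replicates are separate mice, so the spread between samples behind each p-value may be technical. That spread was estimated over all 27 libraries of 0h and ip LPS (12 groups), not over these 4 libraries alone. The codes that end the titles differ between the sides, so within these 4 libraries the code and LPS cannot be told apart.

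LPS is a component of the outer membrane of Gram-negative bacteria, and it is sensed by TLR4 with the co-receptors CD14 and MD-2. The adaptors MyD88 and TRIF lead from there to NF-kB, which drives cytokine, chemokine and acute phase genes, and to IRF3 and type I interferon, which drives interferon-stimulated genes. Inflammatory monocytes, also called classical monocytes, carry Ly6C and the chemokine receptor CCR2, leave the bone marrow for inflamed tissue, and are known there as sources of cytokines, chemokines and antimicrobial proteins.

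Levels are in TPM, an RNA sequencing unit meant to correct for gene length and library size. The deposited columns do not have equal sums: the iMo libraries sum to 367323 and 407607 TPM at 6h, and to 506430 and 551635 TPM at 0h. Fold changes are differences of mean log2(TPM + 1) at 6h minus 0h, and each is printed after subtracting the median over the 8937 genes that were tested, which was -0.48. With each library rescaled to the same sum, the median over the genes then tested was -0.03. Calls were made before that subtraction: a gene is said to have risen or fallen where it passed limma's moderated test with a Benjamini-Hochberg adjusted p under 0.05. The log2(TPM + 1) scale understates changes at low levels. No fold change of iMo at 6h against 0h is printed where both libraries of a side are listed at 0 TPM. Differences of changes between cell types are printed for such genes too, among them Ccl12, Fcor and Camp. Their size depends on the 1 TPM that is added.

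The genes that mark these cells at 6h are Saa3 and Lcn2, secreted acute phase proteins, Ccnb2, a mitotic cyclin, and H2-Eb1, a chain of the MHC class II molecule that presents antigen to CD4+ T cells. The 250 bases before the RefSeq start of each gene (build GRCm38.p6) are shown because their genes moved in these 4 ways and belong to groups whose promoter motifs are known from textbooks. Capitals mark TTNNGCAA, a sequence bound by C/EBP factors, in Saa3 and Lcn2, CCAAT, the box bound by NF-Y, in Ccnb2 and H2-Eb1, and the core of the X box, which is bound by RFX, in H2-Eb1. Each sequence runs 5′ to 3′ on the strand of its gene, and both strands were searched.
Saa3: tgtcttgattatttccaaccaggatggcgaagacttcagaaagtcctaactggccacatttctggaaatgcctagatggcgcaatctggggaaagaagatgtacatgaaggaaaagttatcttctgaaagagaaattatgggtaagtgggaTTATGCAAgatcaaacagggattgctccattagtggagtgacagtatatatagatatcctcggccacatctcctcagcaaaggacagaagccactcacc
Lcn2: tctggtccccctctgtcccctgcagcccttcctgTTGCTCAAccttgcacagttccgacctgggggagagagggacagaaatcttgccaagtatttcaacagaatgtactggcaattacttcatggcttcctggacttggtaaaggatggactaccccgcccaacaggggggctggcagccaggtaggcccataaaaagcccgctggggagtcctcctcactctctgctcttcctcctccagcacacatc
Ccnb2: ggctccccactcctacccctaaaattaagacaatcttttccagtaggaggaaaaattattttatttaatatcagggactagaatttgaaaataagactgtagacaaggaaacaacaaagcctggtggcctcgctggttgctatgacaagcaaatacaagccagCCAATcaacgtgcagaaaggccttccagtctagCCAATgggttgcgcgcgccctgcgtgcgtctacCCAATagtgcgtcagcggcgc
H2-Eb1: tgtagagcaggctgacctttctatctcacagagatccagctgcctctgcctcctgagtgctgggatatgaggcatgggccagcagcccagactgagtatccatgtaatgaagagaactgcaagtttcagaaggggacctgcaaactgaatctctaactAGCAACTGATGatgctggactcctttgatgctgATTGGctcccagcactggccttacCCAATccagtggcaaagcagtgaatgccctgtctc

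The windows lie on the minus strand at chr7:46715677-46715926 (Saa3), chr2:32387740-32387989 (Lcn2) and chr9:70421555-70421804 (Ccnb2), and on the plus strand at chr17:34305617-34305866 (H2-Eb1). The Saa3 window lies inside the gene as annotated, which spans 46711998 to 46719615, upstream of the start used in the table, and the other windows lie outside their genes. In Saa3 the motif begins 99 bases before the start and in Lcn2 216 bases before it, on the other strand. Ccnb2 has CCAAT at 87, 54 and 21 bases before its start. In H2-Eb1 the X box core begins 92 bases before the start, and CCAAT stands at 59 bases on the other strand and at 35 bases. Of 32851 RefSeq promoter windows of this length, 33.8% hold CCAAT, 9.56% TTNNGCAA and 0.0578% the X box core. A match describes letters in the window and is not a measured site. The motifs were chosen after the promoters had been seen, so counts of matches among called genes are no test.

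Libraries of the same side were closer to each other than to the other side. Pearson r of log2(TPM + 1) was 0.936 between the 6h libraries and 0.977 between the 0h libraries, and 0.894 to 0.907 across the sides. The 6h libraries held more of 2 transcripts: the ribosomal RNA precursor Rn45s took 14.6 and 25.0% of the summed TPM at 6h, against 6.27 and 5.32% at 0h, and Lars2 took 7.30 and 10.1%, against 4.32 and 3.53%. The 6h libraries had 5907 and 5345 genes with at least 5 TPM, and the 0h libraries had 6606 and 6496. The part that this shift in the 2 transcripts had in the results was not tested beyond the scalings given here. TPM keeps no read depth, so the depth of each library is unknown. The defining markers of classical monocytes were present on both sides: Ly6c2 had 2103 and 1166 TPM at 6h, against 2046 and 4892 TPM at 0h, and Ccr2 had 121 and 133 TPM, against 931 and 549 TPM.

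At 6h, 532 genes were higher and 2068 lower than at 0h, 29.1% of the genes tested (5.95% higher and 23.1% lower). The split depended on the scaling. Rescaling each library to the same sum gave 1145 higher and 1306 lower genes, doing so without Rn45s and Lars2 gave 1995 and 962, and quantile normalization gave 1264 and 1343, so that 20.5 to 67.5% of the calls were increases. The filter on low values was applied after rescaling, so the first 2 of these fits tested 11320 and 12234 genes. Quantile normalization tested 8937, as on TPM as deposited. Under all 4 scalings 528 genes were called higher (5.91%) and 885 lower (9.9%). With the title code as a covariate 147 genes were higher and 228 lower, and no gene called in both fits changed direction. The median standard error with the covariate was 0.60, against 0.43 without it. The covariate can be fitted because some AM and IM groups hold more than 1 code. The code of the iMo 0h libraries shares a group with another code only in AM at 0h, through library N160623. Every value with the title code modelled for iMo at 6h against 0h rests on that AM library. It also assumes equal code effects in all cell types. Leaving out iMo 0h B171227, iMo 6h B161219 or iMo 0h A171227 gave 1389, 1431 or 1529 calls.

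Secreted defence proteins were among the largest increases. Saa3, a serum amyloid A protein, had 20369 and 11401 TPM at 6h, against 33.9 and 37.8 TPM at 0h, a relative log2 fold change of 9.18 (SE 0.77, limma adjusted p = 8.45e-08). Lcn2, which withholds iron from bacteria by binding their siderophores, had 5743 and 3958 TPM, against 24.7 and 21.9 TPM, a change of 8.10 (SE 0.65, limma adjusted p = 5.32e-08). Both genes were far above 0h in each 6h library, and with the title code modelled the changes were 7.82 and 8.20. Saa1 and Saa2, near-identical copies whose reads may be shared, had 18.1 and 17.0 TPM and 9.78 and 1.00 TPM at 6h, and both were listed at 0 at 0h. Among the 11 tested of 12 acute phase genes, 8 rose and none fell, with a median relative change of 3.01. They included Cfb, complement factor B, at 519 and 281 TPM against 10.1 and 91.9 TPM, Hp, haptoglobin, at 3368 and 1982 TPM against 649.6 and 443 TPM, and Cp, the ferroxidase ceruloplasmin, at 12.2 and 9.32 TPM against 0.784 and 1.32 TPM. C3, the central complement protein, was 195 and 94.6 TPM against 145 and 151 TPM and did not pass (limma adjusted p = 0.86). With the title code as a covariate 3 of the 11 passed, and without iMo 0h A171227 Cfb did not (adjusted p = 0.12). Of the 5 genes of this list called higher that have a promoter entry, 4 hold TTNNGCAA, as in the Saa3 and Lcn2 windows above: Lcn2, Saa1, Saa2 and Saa3. The motif was chosen after these promoters had been seen, and Saa1 and Saa2 are near-identical copies, so the count is no test. None of the 5 holds the kB consensus, and Saa3 alone holds the interferon response element.

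**Figure D1:**
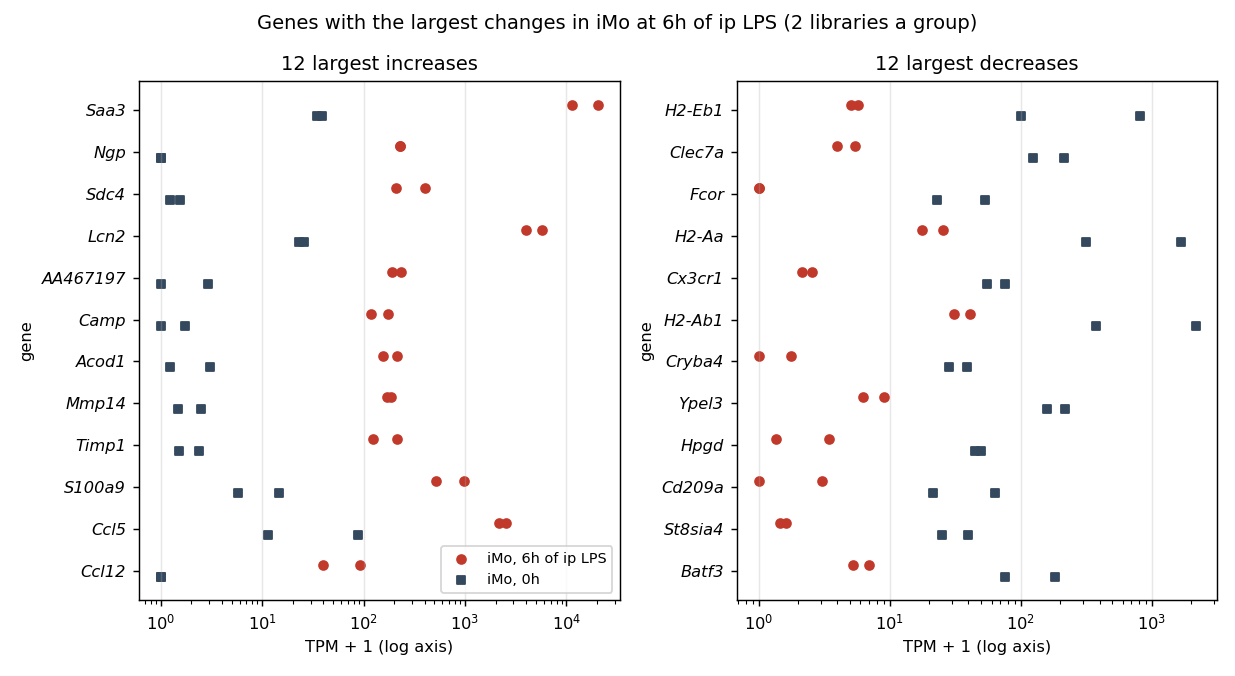
TPM + 1 on a log axis for the 12 genes with the largest increases and the 12 with the largest decreases in iMo at 6h of ip LPS, with red circles for the 6h libraries and dark squares for the 0h libraries, 2 of each. For every gene the 6h libraries lie on 1 side of both 0h libraries. Genes were chosen for this separation, so it is no test.

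Granule and calcium-binding genes known from neutrophils rose in the same libraries. Ngp, the neutrophilic granule protein, had 228 and 229.7 TPM at 6h and was listed at 0 in both 0h libraries. Camp, the cathelicidin antimicrobial peptide, had 172 and 119 TPM, against 0 and 0.744 TPM, a relative change of 7.25 (SE 0.83, limma adjusted p = 5.1e-06). S100a9, which pairs with S100a8 in calprotectin, had 969 and 512 TPM, against 4.72 and 13.6 TPM (6.75, SE 0.79, limma adjusted p = 7.02e-06), and S100a8 had 1572 and 781 TPM, against 53.9 and 39.9 TPM. No 6h library came near the 0h range for these genes. Elane, neutrophil elastase, had 25.0 and 41.9 TPM against 0.671 and 0.484 TPM, and Ltf, lactotransferrin, 20.5 and 15.6 TPM against 0.225 and 0.162 TPM. Of 14 tested of 15 neutrophil markers, 10 rose and none fell, with a median relative change of 2.50, and 6 passed when the title code was modelled. The summed level of the list was 1811 to 3108 TPM at 6h and 138 to 221 TPM at 0h. Ly6g, which defines mature mouse neutrophils, was 1.84 and 1.33 TPM against 1.34 and 0 TPM, and Mmp8 and Csf3r, also neutrophil markers, did not pass. In IM the same sum was 17429 to 57295 TPM at 6h and 11296 to 22658 TPM at 0h. In bulk libraries more cells of a type and more RNA per cell cannot be told apart, and the part that other cells had in these values was not tested.

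Cytokines and inflammatory enzymes rose in part. Acod1, the enzyme that makes itaconate, had 155 and 212 TPM at 6h, against 0.237 and 2.05 TPM at 0h, a relative change of 7.04 (SE 0.58, limma adjusted p = 8.45e-08). Ptges, which makes prostaglandin E2, had 28.3 and 29.8 TPM against 0.168 and 0.364 TPM, and Nos2, inducible nitric oxide synthase, 7.14 and 7.49 TPM against 0 and 0.427 TPM. Il6 had 9.68 and 4.82 TPM against 0 and 0.389 TPM, and Tnf 12.8 and 12.2 TPM against 2.60 and 5.63 TPM. Of 18 tested members 7 rose (median relative change 1.59), 10 with each library rescaled to the same sum and 13 with Rn45s and Lars2 left out. Il15, a growth factor of NK and memory T cells, fell to 1.33 and 4.80 TPM, against 19.4 and 32.5 TPM. Il1b, the interleukin matured by caspase-1, was 242 and 145 TPM against 83.3 and 94.6 TPM and did not pass (relative change 1.55, SE 0.84, limma adjusted p = 0.35). With the title code as a covariate 7 members passed upwards and Il15 downwards. Il1a and Il1b were then among those higher, and Il12a and Csf3 were not.

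Of 21 chemokine genes 10 rose and 2 fell, with a median relative change of 1.39. Ccl5, which draws T cells and monocytes, had 2155 and 2530.2 TPM at 6h, against 10.5 and 86.4 TPM at 0h (relative change 6.69, SE 0.86, limma adjusted p = 1.88e-05). The CCR2 ligands Ccl2, Ccl7 and Ccl12 all rose. Ccl2 had 336 and 365 TPM against 61.2 and 42.4 TPM, Ccl7 30.8 and 58.9 TPM against 0 and 0.556 TPM, and Ccl12 90.6 and 38.9 TPM at 6h and was listed at 0 in both 0h libraries. The CXCR3 ligand Cxcl10 had 612 and 816 TPM against 6.16 and 102 TPM, and its call was lost with the title code modelled and without iMo 0h A171227 (adjusted p = 0.1). Those that fell were Ccl6, at 54.9 and 94.7 TPM against 1497 and 1246 TPM, and Ccl9, at 57.1 and 78.3 TPM against 459.6 and 281 TPM, both abundant in resting myeloid cells of mice. Ccl9 was not called under every scaling, and neither Ccl6 nor Ccl9 passed with the title code as a covariate.

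Of 16 TLR4 receptor and adaptor genes 2 rose and 1 fell on TPM as deposited (median relative change 0.32), and none passed with the title code modelled. The counts were 4 and 0 with each library rescaled to the same sum, 6 and 0 with Rn45s and Lars2 left out, and 6 and 1 with quantile normalization. Tlr4 itself was 3.10 and 2.85 TPM at 6h, against 6.61 and 5.04 TPM at 0h, and Cd14 was 89.6 and 132 TPM, against 69.2 and 41.6 TPM; neither passed. Ticam1, which encodes TRIF, passed at 12.2 and 16.3 TPM against 5.86 and 7.97 TPM (limma adjusted p = 0.048), but in none of the fits that left out 1 of the 4 libraries. Receptors that guide monocytes and neutrophils to bacterial and complement products rose: Fpr1, for formyl peptides, had 111 and 99.4 TPM against 13.5 and 6.69 TPM, and C5ar1, for complement C5a, 87.5 and 99.6 TPM against 20.1 and 6.09 TPM. In the list of adhesion and chemotaxis receptors 2 of 20 rose and 6 fell (median relative change 0.69), where 23.1% of all genes were lower, and 3 fell without iMo 0h A171227 or iMo 6h B161219. The balance turned with the scaling: 4 rose and 3 fell with each library rescaled to the same sum, 6 and 2 with Rn45s and Lars2 left out, and 6 and 3 with quantile normalization. Cx3cr1, the fractalkine receptor, had 1.58 and 1.13 TPM at 6h, against 75.5 and 54.5 TPM at 0h, a relative change of -4.31 (SE 0.54, limma adjusted p = 1.92e-06). Ccr2 fell too (SE 0.67 on the log2 scale, limma adjusted p = 0.00811), though not under every scaling and not without iMo 0h A171227 (adjusted p = 0.084). Among 12 inflammatory G protein-coupled receptors 3 rose and 1 fell (median relative change 0.84). Gpr84, a receptor for medium-chain fatty acids, had 46.9 and 51.4 TPM against 0.396 and 1.14 TPM, and Adora2a, an adenosine receptor, 13.3 ± 0.954 TPM against 2.22 ± 0.467 TPM (SD, n = 2 each). None of 11 C-type lectins rose and 2 fell (median relative change -0.07). These were Clec7a, the beta-glucan receptor dectin-1, at 4.46 and 2.94 TPM against 124 and 213 TPM (-4.66, SE 0.72, limma adjusted p = 2.15e-05), and Clec10a, at 3.98 and 1.63 TPM against 23.5 and 18.1 TPM.

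Inhibitors of the pathway were among the genes that rose. Of 17 NF-kB genes 6 rose and 1 fell, with a median relative change of 1.22, and with Rn45s and Lars2 left out of the scaling 13 rose and none fell, with quantile normalization 12 and none. Tnfaip3, which encodes the deubiquitinase A20, had 40.0 and 34.3 TPM at 6h, against 1.67 and 2.90 TPM at 0h (4.04, SE 0.45, limma adjusted p = 6.15e-06), and Nfkbia, which encodes IkBa, 445 and 730.4 TPM against 74.5 and 155 TPM. Tnip1 and Tnip3, which act with A20, and Traf1 and Ikbke rose as well. The transcription factor genes Nfkb1, Nfkb2, Rela and Relb did not pass, and Rel fell to 3.61 and 3.07 TPM, against 8.58 and 11.7 TPM, though not under every scaling. Of 13 anti-inflammatory and SOCS genes 7 rose and 1 fell, with a median relative change of 2.04. Il1rn, the interleukin-1 receptor antagonist, had 389 and 882 TPM against 11.4 and 15.2 TPM (5.86, SE 0.61, limma adjusted p = 2.13e-06), and Socs3, an inhibitor of JAK-STAT signalling, 193 and 210.1 TPM against 14.6 and 16.1 TPM. Il10 was 1.95 and 0.467 TPM against 0 and 0.68 TPM and did not pass. Of 9 tested genes for mRNA decay and MAPK phosphatases 4 rose and 2 fell, led by Dusp2, at 159 and 340.5 TPM against 3.04 and 12.3 TPM, with a median relative change of 0.83. The number that rose was 2 without iMo 0h A171227, iMo 0h B171227 or iMo 6h B161219, and the 2 falls were called neither under every scaling nor without any 1 library. Of 10 tested glucocorticoid-induced genes 4 rose and 2 fell (median relative change 0.82), and 1 fell without iMo 0h A171227, iMo 6h A161219 or iMo 6h B161219. Fkbp5, which binds the glucocorticoid receptor complex, had 56.9 ± 32.1 TPM against 8.24 ± 5.36 TPM (SD, n = 2 each), and Ddit4, an inhibitor of mTORC1, 25.1 and 14.5 TPM against 1.09 and 1.84 TPM, whereas Anxa1, annexin A1, fell to 63.0 and 63.4 TPM, against 312 and 233 TPM. Among 15 tested immediate early genes 2 rose and 4 fell (median relative change -0.24), and 2 fell without iMo 0h B171227. Myc had 13.4 and 17.8 TPM against 1.79 and 1.11 TPM, and Fos 23.7 and 34.1 TPM against 219 and 173 TPM, a fall lost when Rn45s and Lars2 were left out of the scaling or the title code was modelled.

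Of 28 type I interferon-stimulated genes 6 rose above 0h and 1 fell, with a median relative change of 0.99, where 5.95% of all genes were higher. Isg15, a ubiquitin-like antiviral protein, had 328 and 125 TPM at 6h, against 21.2 and 31.1 TPM at 0h (3.41, SE 0.64, limma adjusted p = 0.00163), and Rsad2, viperin, 65.9 and 142 TPM against 8.93 and 23.1 TPM. These counts were fragile: quantile normalization gave 14 higher and 0 lower, leaving Rn45s and Lars2 out of the scaling 13 and 0, modelling the title code 0 and 0, and leaving out iMo 0h A171227, iMo 0h B171227 or iMo 6h A161219 gave 1, 3 and 3 higher. Against iMo at 2h, which carry the same title code, 18 of the 28 were lower and none higher. None of 13 tested interferon-inducible GTPases passed in either direction (median relative change 0.61), and 5 rose once iMo 0h B171227 was left out. That library had 330.3 TPM of Gbp2, a guanylate-binding protein induced by interferon-gamma, against 18.3 TPM in iMo 0h A171227, with 109 and 148 TPM at 6h. Of 17 MHC class I and immunoproteasome genes, Tap2, a peptide transporter subunit, rose and H2-T23 fell (median relative change 0.16), and neither passed with the title code as a covariate.

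Genes of mitosis, low at 0h, were higher at 6h. Of 20 tested of 24 G2/M and mitosis genes 17 rose and none fell, with a median relative change of 2.68, and 12 passed with the title code as a covariate. Ccnb2 had 31.4 and 46.4 TPM at 6h, against 0 and 1.15 TPM at 0h, a relative change of 5.22 (SE 0.43, limma adjusted p = 1.02e-07). Cdc20, an activator of the anaphase-promoting complex, had 12.9 and 14.4 TPM against 0 and 0.249 TPM, Ube2c, its ubiquitin-conjugating enzyme, 21.9 and 13.8 TPM against 0 and 1.44 TPM, and Top2a, topoisomerase II, 16.0 and 12.3 TPM against 0.592 and 1.11 TPM. All of these were below 2 TPM in both 0h libraries and above 10 TPM in both 6h libraries. Mki67, which encodes the proliferation marker Ki-67, had 15.7 and 6.82 TPM against 2.01 and 1.40 TPM. Of 20 tested of 24 G1/S and DNA replication genes 7 rose and none fell (median relative change 1.03), among them Rrm2, a ribonucleotide reductase subunit, at 10.5 and 7.28 TPM against 0.565 and 0.204 TPM, and the G1 cyclin Ccnd2, at 16.3 and 33.7 TPM against 1.49 and 3.45 TPM. Pcna, the DNA polymerase clamp, was 12.8 and 11.6 TPM against 21.1 and 21.5 TPM and did not pass. With the title code as a covariate 3 of the 20 G1/S genes passed. Of 13 called G2/M genes with a promoter entry 11 hold CCAAT, as in the Ccnb2 window, beside 33.8% of all windows. Ccnb2 is 1 of the 11, and the motif was chosen after the promoters had been seen.

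**Figure D2:**
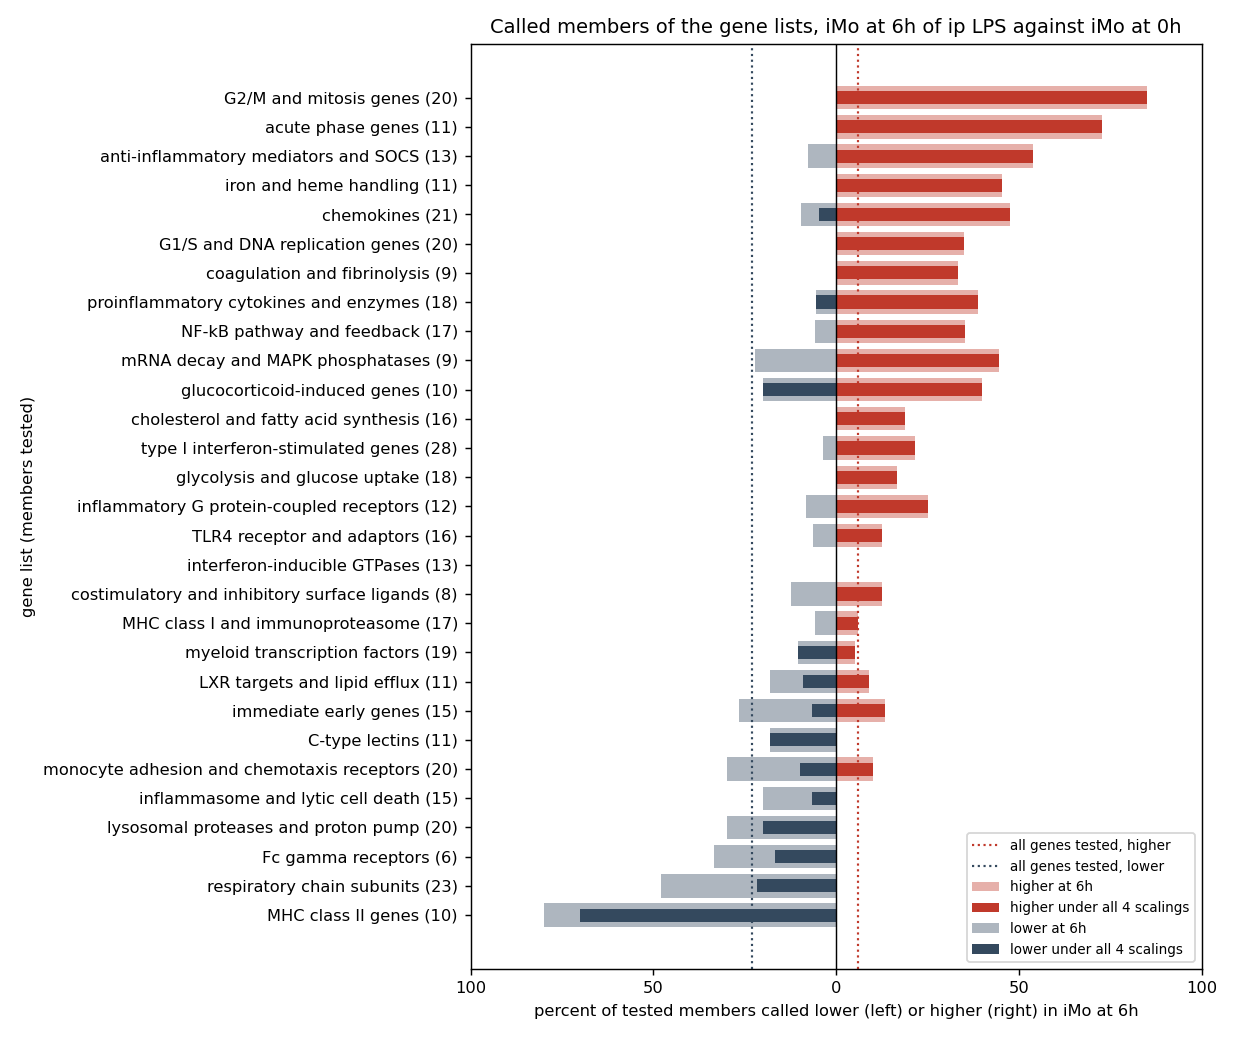
Percent of the tested members of each of 29 gene lists that were called lower (left) or higher (right) in iMo at 6h against iMo at 0h, with the number tested in parentheses. Pale bars are the calls on TPM as deposited, dark bars those called under all 4 scalings, and dotted lines the shares of all genes tested (5.95% higher and 23.1% lower). The longest bars are G2/M and acute phase genes to the right and MHC class II genes to the left.

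MHC class II genes fell, from 0h levels that differed between the replicates. H2-Eb1 had 4.07 and 4.75 TPM at 6h, against 100.0 and 813 TPM at 0h, a relative change of -5.25 (SE 0.84, limma adjusted p = 3.22e-05). H2-Aa had 16.7 and 24.6 TPM against 316 and 1677 TPM, H2-Ab1 29.9 and 40.0 TPM against 374 and 2162 TPM, and the invariant chain Cd74 175 and 252 TPM against 929 and 3956 TPM. iMo 0h B171227 was the highest library for each of these genes, and both 0h libraries stayed above both 6h libraries. Of the 10 class II genes tested 8 fell and none rose, with a median relative change of -2.34. Among all genes 23.1% were lower. The number was 5 with the title code as a covariate and 4 without iMo 0h B171227. Ciita, the transactivator of the class, fell to 1.94 and 3.44 TPM, against 6.52 and 16.0 TPM, but not under every scaling. Of the 5 called members with a promoter entry 4 hold CCAAT, H2-Eb1 among them, and the X box core was found in H2-Eb1. Both motifs were chosen after the promoters had been seen. Among 8 tested surface ligands (median relative change 0.95) Cd274 rose and Cd86 fell. Cd274, the ligand of PD-1, had 48.6 and 37.5 TPM against 0.676 and 13.9 TPM, and Cd86, a ligand of CD28, 5.01 and 4.56 TPM against 14.1 and 16.2 TPM. The call of Cd274 was lost without iMo 0h A171227 (adjusted p = 0.14) and that of Cd86 without any of the 4 libraries, and both were lost when the title code was modelled.

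Other large decreases were in transcription factor and enzyme genes. Batf3, a transcription factor needed for conventional dendritic cells of the cross-presenting type, had 5.97 and 4.29 TPM at 6h, against 74.6 and 182 TPM at 0h (-3.79, SE 0.54, limma adjusted p = 7.06e-06). Ypel3, of the Yippee family, had 8.07 and 5.22 TPM against 159 and 216 TPM, Hpgd, which inactivates prostaglandins, 2.47 and 0.355 TPM against 44.1 and 48.8 TPM, and St8sia4, a polysialyltransferase, 0.625 and 0.449 TPM against 38.3 and 24.3 TPM. Fcor, a Foxo1 corepressor, was listed at 0 in both 6h libraries and had 52.5 and 22.1 TPM at 0h. Cryba4, best known as a lens crystallin, had 0 and 0.758 TPM against 27.5 and 38.0 TPM. Among 19 tested myeloid transcription factors 1 rose (Maf) and 2 fell (Batf3 and Cebpd), with a median relative change of 0.25. Of 20 lysosomal genes none rose and 6 fell on TPM as deposited (median relative change -0.11), beside 23.1% lower among all genes. With Rn45s and Lars2 left out of the scaling 3 rose and 5 fell, and with quantile normalization 3 and 4. Lyz2, the lysozyme of myeloid cells, had 3733 and 2712 TPM at 6h, against 42397 and 38457 TPM at 0h (-3.18, SE 0.54, limma adjusted p = 3.33e-05), and Cst3, cystatin C, 698 and 647 TPM against 3289 and 4349 TPM. Both Lyz2 and Cst3 were called under all 4 scalings and with the title code modelled.

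Other large increases were in matrix and surface genes. Mmp14, a membrane-anchored metalloproteinase, had 187 and 167 TPM at 6h, against 0.485 and 1.51 TPM at 0h (7.01, SE 0.68, limma adjusted p = 6.52e-07), and Timp1, an inhibitor of such proteases, 122 and 211 TPM against 1.40 and 0.502 TPM. Sdc4, a heparan sulfate proteoglycan, had 207 and 402 TPM against 0.25 and 0.54 TPM, and AA467197, the mouse counterpart of human NMES1, 191 and 231 TPM against 1.94 and 0 TPM. Each was called under all 4 scalings and with the title code modelled.

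Of 11 tested iron and heme genes 5 rose, with a median relative change of 1.63. Hmox1, heme oxygenase 1, had 387 and 214 TPM at 6h, against 19.1 and 12.9 TPM at 0h (4.59, SE 0.53, limma adjusted p = 8.94e-06), and Fth1, ferritin heavy chain, 7788 and 15910.1 TPM against 1950.2 and 2016 TPM. With the title code as a covariate 4 passed. Of 18 tested glycolysis genes 3 rose (median relative change 0.57), led by Pfkfb3, which makes the activator of phosphofructokinase, at 29.9 and 14.4 TPM against 4.51 and 3.68 TPM, and 1 rose without iMo 0h B171227 or iMo 6h A161219. Of 16 tested cholesterol and fatty acid genes 3 rose (median relative change 1.14), led by the transcription factor gene Srebf2, at 33.8 and 22.6 TPM against 4.58 and 4.75 TPM. In that list 7 rose with each library rescaled to the same sum, 9 with Rn45s and Lars2 left out and 8 with quantile normalization. Neither the glycolysis nor the cholesterol and fatty acid list kept a call with the title code modelled. Nr1h3, which encodes LXRa, had 111 and 67.5 TPM against 2.40 and 5.67 TPM, the only rise among 11 LXR and lipid efflux genes, of which Trem2 and Apoe fell (median relative change -0.02), with 1 of them called without any 1 of the 4 libraries. Of 23 tested respiratory chain subunits 11 fell and none rose (median relative change -0.67), a result that moved with the processing: 5 fell and 2 rose once Rn45s and Lars2 were left out of the scaling, none passed with the title code as a covariate, and 3, 4 and 7 fell without iMo 0h B171227, iMo 6h B161219 and iMo 0h A171227. Cox4i1, of complex IV, had 306 and 274 TPM against 1202 and 1886 TPM. Of 9 tested coagulation genes 3 rose (median relative change 1.29), with F10, coagulation factor X, at 296 and 177 TPM against 85.2 and 47.7 TPM, and only 1 did so without any 1 of iMo 0h A171227, iMo 0h B171227 and iMo 6h A161219. Of 6 Fc gamma receptor genes 2 fell (Fcgr3 and Fcgrt, median relative change 0.24), and of 15 tested inflammasome genes 3 fell (Casp1, Aim2 and Naip5, median relative change -0.14), where 23.1% of all genes were lower. On TPM as deposited none of either list rose, but 2 of each did with Rn45s and Lars2 left out of the scaling and with quantile normalization. None of the 5 genes that fell kept its call with the title code as a covariate, and no coagulation gene passed with it.

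Markers of cell types were read beside these groups. Of 12 classical monocyte markers 1 rose (Hp) and 4 fell (Mgst1, Ifitm6, Ccr2 and Vcan), of which 1 fell under all 4 scalings and 1 and 2 were called without iMo 0h A171227 and iMo 6h B161219, and their summed level was 6799 to 9669 TPM at 6h and 11484 to 15779 TPM at 0h. Of 10 nonclassical monocyte markers 3 fell (Cx3cr1, Ace and Eno3), with sums of 268 to 351 TPM and 319.9 to 343 TPM. Of 16 alveolar macrophage markers 2 rose: Fabp4, a fatty acid-binding protein, at 35.0 and 41.4 TPM against 1.82 and 3.92 TPM, and the scavenger receptor Marco, at 7.97 and 7.64 TPM against 0 and 0.232 TPM. Sums of that list were 753 to 1003 TPM at 6h and 975 to 1109 TPM at 0h. Of 15 interstitial macrophage markers Mertk and Cd63 rose and Apoe fell, with sums of 232 to 274 TPM and 1285 to 1326 TPM. Of 5 tested dendritic cell markers Fscn1 rose and Cd209a fell, with sums of 8.52 to 17.6 TPM and 29.4 to 73.6 TPM. Of 7 tested lymphocyte markers Nkg7 and Ncr1, genes of NK cells, rose and Cd79b, a B cell gene, fell, with sums of 41.8 to 104 TPM and 40.0 to 57.3 TPM. Lung epithelial markers summed to 24.6 to 28.2 TPM at 6h and 132 to 173 TPM at 0h, and 2 of 7 tested fell (Sftpc and Hopx). Endothelial, fibroblast, erythroid, platelet, and eosinophil and basophil markers each summed to at most 73.4 TPM on either side. Of the 10, 4, 4, 1 and 1 of them tested, Tmem100 of the endothelial and Mgp and Inmt of the fibroblast list fell, and none rose. Inmt had a positive relative change with the title code as a covariate (1.12, adjusted p = 0.682). Median relative changes of the lists were -0.86 for classical and -0.21 for nonclassical monocytes, 1.29 for alveolar and 0.81 for interstitial macrophages, 0.67 for dendritic cells, 0.40 for lymphocytes, 0.39 for epithelium, -0.13 for endothelium, -0.71 for fibroblasts, -1.49 for erythroid cells, and 0.71 and 0.12 for the single eosinophil or basophil and platelet genes tested. Without at least 1 of the 4 libraries the calls of lymphocyte, epithelial, endothelial, fibroblast and interstitial macrophage markers changed by at least 1 gene. With Rn45s and Lars2 left out of the scaling more members rose in several lists: 11 G1/S genes, 6 each of glycolysis, coagulation, G protein-coupled receptor and alveolar macrophage genes, 5 myeloid transcription factors, 4 MHC class I genes and 3 surface ligands. The part that changes of these cell types had in the results above was not tested.

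Set against iMo at 2h of ip LPS, the iMo at 6h had higher cell cycle and granule genes and lower early cytokine genes, and this comparison stays within 1 title code. Of the genes tested 295 were higher and 431 lower at 6h than at 2h, 8.12% in all (3.3% higher and 4.82% lower), and the median change was -0.08. The share of increases among the calls was 40.6%, and it was 51.0% with each library rescaled to the same sum, 69.5% with Rn45s and Lars2 left out and 50.3% with quantile normalization. Without iMo 2h B161219 or iMo 6h B161219, 223 or 322 genes were called. The 5 largest increases were in Ccnb2 and 4 histone genes of the Hist1 cluster, whose copies are near-identical and may share reads. The relative change of Hist1h4c was 2.04 without iMo 2h A161219 and 3.25 without iMo 6h B161219. Against 0h, Hist1h2ak and Hist1h4f rose, but Hist1h4c and Hist1h4d did not pass (limma adjusted p = 0.545 and 0.212). Over 0, 2, 6 and 20h Ccnb2 averaged 0.577, 1.43, 38.9 and 20.4 TPM (SD 0.816, 0.662, 10.6 and 5.13, n = 2 each), and the change from 2h to 6h was 4.12 (SE 0.43, limma adjusted p = 6.22e-06). Ngp averaged 0, 29.0, 229 and 146 TPM and S100a9 9.17, 83.4, 741 and 1159 TPM over the same times. G2/M genes were higher at 6h than at 2h in 14 of 20, G1/S genes in 5 of 20 (8 of 20 with quantile normalization), neutrophil markers in 7 of 14 with 1 lower (Csf3r), and glucocorticoid-induced genes in 5 of 10. Leaving out 1 of the 4 libraries gave 6 to 11 G2/M genes, 1 to 3 G1/S genes and 3 to 6 neutrophil markers.

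Cytokine, chemokine and interferon-stimulated genes were among those lower at 6h than at 2h. The chemokine gene Ccl4 averaged 4.96, 1649.8, 144 and 63.3 TPM over 0, 2, 6 and 20h, and its fall from 2h to 6h was -3.47 (SE 0.73, limma adjusted p = 0.00312), a call lost without iMo 2h B161219 (adjusted p = 0.073) or iMo 6h A161219 (adjusted p = 0.052). Il15 averaged 25.9, 61.9, 3.07 and 1.64 TPM, Cxcl11 0.33, 87.7, 6.21 and 0 TPM, Serpinb2, a plasminogen activator inhibitor, 0, 54.5, 2.59 and 0.639 TPM, and Rilpl1 2.56, 44.8, 0.701 and 0.406 TPM. All of these were highest at 2h in the mean. Type I interferon-stimulated genes were lower at 6h than at 2h in 18 of 28, NF-kB genes in 6 of 17, cytokines and enzymes in 5 of 18 and chemokines in 4 of 21, and no member of these lists was higher on TPM as deposited. With libraries rescaled 1 cytokine gene was higher. Leaving out iMo 2h B161219 left 8, 3, 3 and 1 members lower in the same 4 lists, and with the title code modelled 12 NF-kB genes were lower. Saa3 and Lcn2 had no call between 6h and 2h: Saa3 averaged 35.8, 9266, 15885 and 6936 TPM and Lcn2 23.3, 3731, 4851 and 982 TPM over the 4 times (limma adjusted p = 0.566 and 0.694 for 6h against 2h). A p that misses the threshold does not show that they are equal. H2-Eb1 averaged 456, 19.2, 4.41 and 28.0 TPM and Cx3cr1 65.0, 9.98, 1.35 and 13.6 TPM, both lowest at 6h in the mean, without a call between 6h and 2h.

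**Figure D3:**
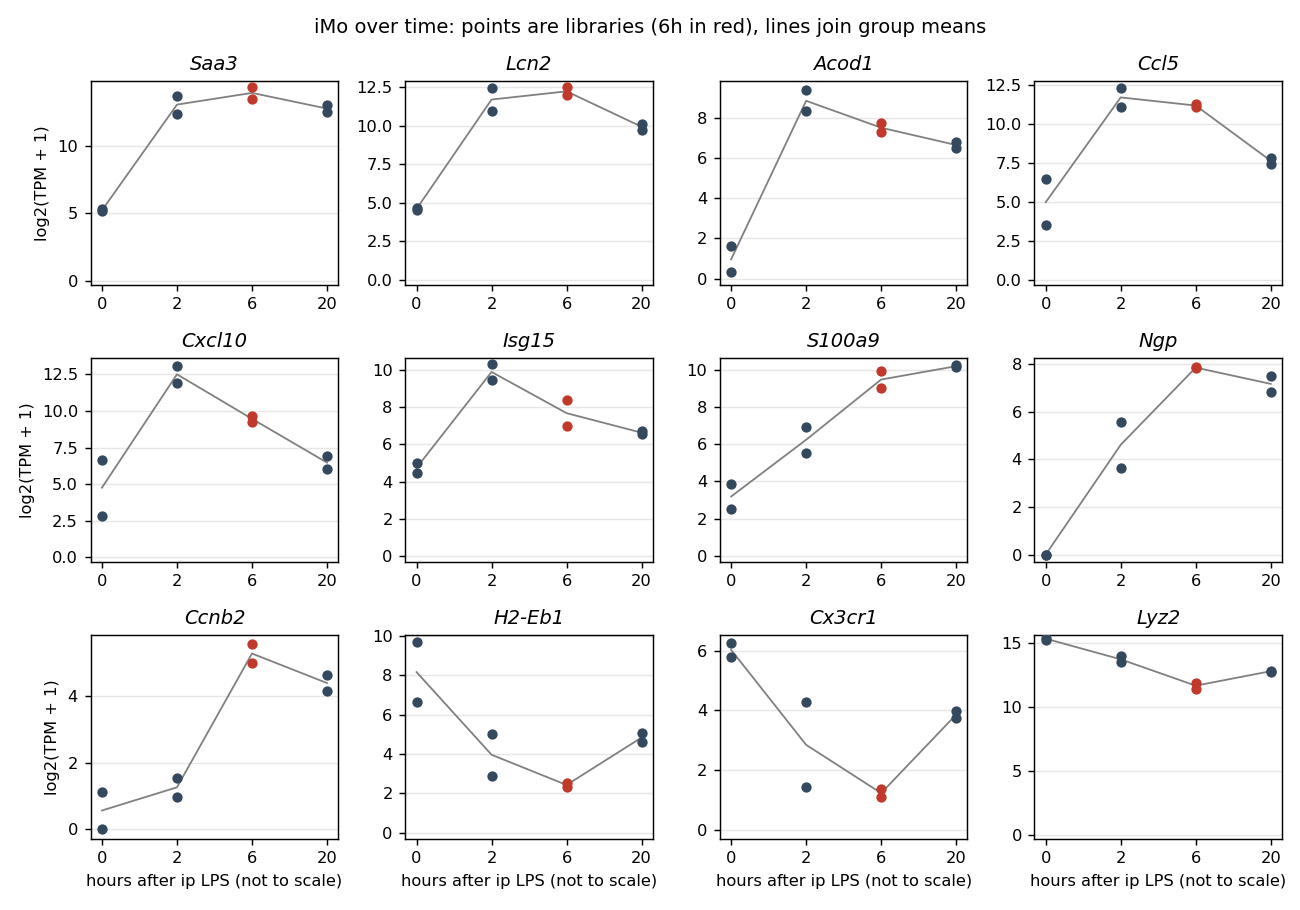
log2(TPM + 1) of 12 genes in iMo at 0, 2, 6 and 20h of ip LPS (hours not to scale), with 2 libraries per time as points, the 6h libraries in red, and lines through the group means. In the mean, Ccnb2, Ngp and S100a9 were higher at 6h than at 2h. Ngp and S100a9 were above 0h by 2h, and S100a9 was highest at 20h. Cxcl10 and Isg15 were highest at 2h, and H2-Eb1, Cx3cr1 and Lyz2 were lowest at 6h.

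The change of iMo at 6h was also compared with that of IM and AM by the difference of the changes from 0h, in log2 units and relative to the median of all genes. Against IM, 345 genes had a more positive change in iMo and 42 a more negative one, 4.33% of those tested (3.86% and 0.47%), and the share of positive differences was 89.1%, 96.2% with each library rescaled, 95.0% without Rn45s and Lars2 and 64.4% with quantile normalization. Without IM 0h A171227 or IM 0h B171227, 63 or 72 genes were called, and without iMo 0h A171227 or iMo 6h B161219, 196 or 247. Ccl12 had 90.6 and 38.9 TPM in iMo at 6h and was listed at 0 in iMo at 0h, while IM had 126 and 37.8 TPM at 6h and 55.9 and 46.4 TPM at 0h. Ccl7 had 30.8 and 58.9 TPM in iMo at 6h and 0 and 0.556 TPM at 0h, and 36.3 and 45.7 TPM in IM at 6h and 39.3 and 40.6 TPM at 0h, a difference of changes of 5.12 (SE 0.80, limma adjusted p = 0.000623). IM held these CCR2 ligands at both times. S100a9 was 24856 and 7231 TPM in IM at 6h and 10729.5 and 5159 TPM at 0h, above iMo at either time, and its difference of changes of 5.44 (limma adjusted p = 0.00467) was not called without IM 0h A171227 (adjusted p = 0.074). Of 20 G2/M genes 11 had a more positive change in iMo and none a more negative one, with 7 under quantile normalization, and leaving out 1 library gave 4 to 9. Mmp8, neutrophil collagenase, had 49.1 and 49.2 TPM in iMo at 6h and 124 and 57.5 TPM at 0h, and 444 and 135 TPM in IM at 6h and 47.4 and 34.1 TPM at 0h, a difference of -3.33 (SE 0.68, limma adjusted p = 0.00382) that was not called without IM 0h B171227 (adjusted p = 0.053).

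For some of these genes the IM libraries at 0h stood above all others. Cd81, a tetraspanin, was 4.48 and 4.03 TPM in iMo at 6h and 2.85 and 2.63 TPM at 0h, and fell in IM to 4.22 and 6.33 TPM, against 221 and 164 TPM at 0h. Endothelial markers, of which 8 of 10 had a positive difference, summed to 14.3 to 22.5 TPM in iMo at 6h, 10.3 to 56.6 TPM in iMo at 0h, 20.2 to 26.2 TPM in IM at 6h and 561 to 764 TPM in IM at 0h. Fibroblast markers, of which 4 of 4 tested had one, summed to 1.51 to 4.01, 12.2 to 20.0, 2.13 to 3.45 and 551 to 557 TPM in the same groups. Leaving out IM 0h A171227 left 2 endothelial and 0 fibroblast markers, and leaving out IM 0h B171227 left 1 and 0. The part of other cells in the IM libraries was not tested.

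Against AM, 184 genes had a more positive change in iMo and 519 a more negative one, 7.87% of those tested (2.06% and 5.81%). The share of positive differences was 26.2%, 37.8% with each library rescaled, 54.7% without Rn45s and Lars2 and 48.7% with quantile normalization. Without iMo 0h B171227, iMo 6h B161219, iMo 0h A171227 or AM 6h B161219, 279, 310, 347 or 427 genes were called. AA467197 had 191 and 231 TPM in iMo at 6h and 1.94 and 0 TPM at 0h, and 17.4, 17.7 and 13.6 TPM in AM at 6h and 3.15 to 11.3 TPM in 4 AM libraries at 0h, a difference of changes of 6.16 (SE 0.69, limma adjusted p = 3.72e-05). Il1rn rose in iMo as given above and was 98.7, 111 and 50.5 TPM in AM at 6h and 42.1 to 156 TPM at 0h, a difference of 6.03 (SE 0.77, limma adjusted p = 0.000129). Ccnb2 had 19.0, 21.0 and 17.5 TPM in AM at 6h and 17.7 to 29.2 TPM at 0h, so AM carried it at both times. The difference was 5.47 (SE 0.54, limma adjusted p = 6.56e-06). G2/M genes had a more positive change in iMo in 13 of 20, in 20 of the 24 tested with Rn45s and Lars2 left out of the scaling, and in 9 to 15 with 1 library left out. MHC class II genes had a more negative one in 5 of 10, in none without iMo 0h B171227, in 1 without iMo 6h B161219, and in 2 without iMo 6h A161219 or AM 6h B161219. Camp, which was listed at 0 in every AM library at 0h, and Sdc4 had differences of 5.86 and 5.61. Cx3cr1 was below 1 TPM in every AM library, and its difference of changes was -4.43. Saa3 had 832, 400.2 and 158 TPM in AM at 6h and 0 to 2.15 TPM at 0h, and the difference of its changes in iMo and AM did not pass (1.37, SE 0.97, limma adjusted p = 0.564). Of 11 tested acute phase genes 4 had a more positive change in iMo than in AM and none a more negative one (median difference 1.91). Only 2 were more positive without AM 0h C171227 or AM 6h B161219. Without AM 0h D171227 or AM 6h N160623, 2 were more positive and 1 more negative. Modelling the title code gave 4 more positive and 1 more negative. Leaving out 1 library gave a median difference of 1.34 to 2.03. Against IM 1 acute phase gene was more positive and 2 more negative (median difference -0.74). None of the 10 MHC class II genes was called in either direction against IM (median difference 0.73).

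**Figure D4:**
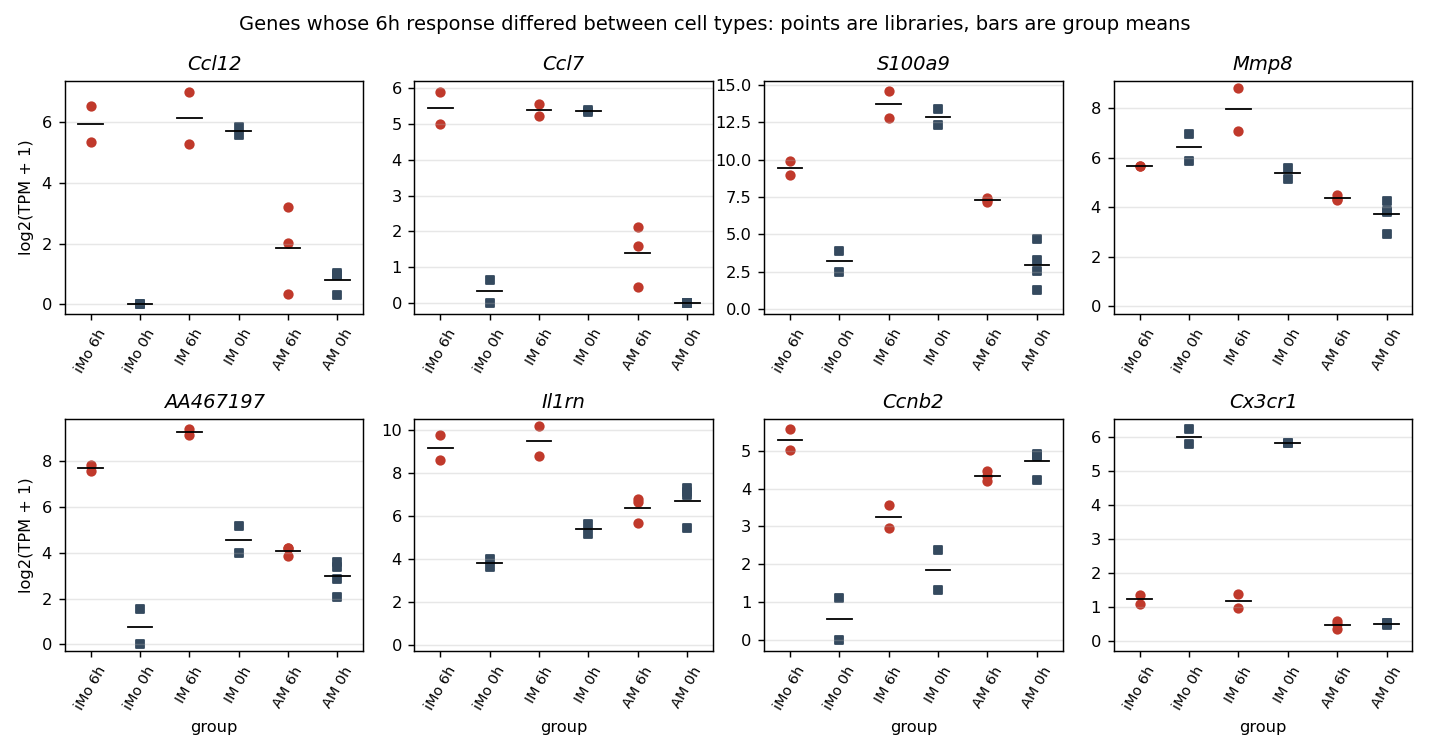
log2(TPM + 1) of 8 genes in iMo, IM and AM at 6h of ip LPS (red circles) and 0h (dark squares), with points for libraries and bars for group means. Ccl12 and Ccl7 were as high in IM at 0h as in iMo at 6h, Ccnb2 was similar in AM at both times, and Cx3cr1 was high only in iMo and IM at 0h.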

How the data were processed

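The deposited values are TPM per gene that the authors computed from RNA sequencing reads, with STAR, HOMER and build mm10 per the submitters' processing notes. Tool versions and the gene annotation were not given in those notes. TPM keeps no read depth, so no counting error can be given. Of 23594 gene entries, 8937 with at least 5 TPM in at least 2 of 27 libraries (12 groups of 0h and ip LPS) were tested on log2(TPM + 1), with a pseudocount of 1 TPM, by limma 3.58.1 with a mean-variance trend (R 4.3.3), and p-values were adjusted by the Benjamini-Hochberg method at 0.05. All 12 groups entered 1 fit and shared its estimate of the spread. The model was tested on simulated data. The 18 intranasal columns were not used, because their gene names do not match their values. The members and the 42 gene lists (29 response and 13 cell type lists) were chosen with earlier results of these data known, and motifs were chosen after the promoters had been seen. Genes named are the 4 marker genes, the 12 largest called changes in each direction without overlap and with at least 10 TPM in the higher group, the 5 largest in each other comparison, up to 4 called members of each list, and members whose role orders the text. Alternatives were the pseudocount, the filter, the scaling, title code, array weights, samples in the fit, a replicate block by title letter and leaving out each library; the count over all 4 scalings was chosen after seeing the data. Promoter sequences are from RefSeq (GRCm38.p6).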

Additional observations from a re-analysis of the deposited data

Results flagged for a closer look

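The change from 0h to 6h differed between iMo and IM, by the test of the difference itself, for 10 named genes. The difference of log2 changes, iMo minus IM and relative to the median of all genes, was 5.50 for Ccl12, 5.46 for Cd81, 5.44 for S100a9, 5.12 for Ccl7 and 4.98 for Inmt. It was -3.95 for Fcor, -3.33 for Mmp8, -3.23 for Il1a, -3.19 for Prok2 and -3.10 for Hsh2d. Both iMo libraries were listed at 0 for Ccl12 at 0h and for Fcor at 6h, so the size of these differences depends on the added 1 TPM. Ccl12, Cd81 and Ccl7 kept their call without any 1 library, and each of the other 7 lost it without at least 1.

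Between iMo and AM the difference, iMo minus AM, was 6.16 for AA467197, 6.03 for Il1rn, 5.86 for Camp, 5.61 for Sdc4 and 5.47 for Ccnb2. It was -5.15 for Cryba4, -4.95 for Fcor, -4.76 for Ifitm6, -4.47 for Plac8 and -4.43 for Cx3cr1. These 10 kept their call without any 1 library. Fcor in iMo at 6h and Camp in AM at 0h were listed at 0 in all libraries, so the size of their differences depends on the added 1 TPM. Ifitm6 had 193 and 85.9 TPM in iMo at 6h and 1010.2 and 909 TPM at 0h, and Plac8, a gene of monocytes and plasma cells, 2041 and 2119 TPM at 6h and 3736 and 6436 TPM at 0h.

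In the 4 AM libraries at 0h, 1 library stood apart from the others for 2 of 13 genes examined. The gap to the nearest library took 0.915 of the whole range for Ccnb2 and 1.00 for Cryba4 on the log2(TPM + 1) scale. Chance flags about 1 in 20 such groups, and Cryba4 was at most 0.467 TPM there.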

How the results depend on the processing

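For iMo at 6h against 0h (2600 calls), 375 were made with the title code as a covariate, 1413 genes were called in the same direction under all 4 scalings, and leaving out 1 library gave 1389 to 2089. For 6h against 2h (726 calls), 1451 were made without Rn45s and Lars2 in the scaling, 1358 with quantile normalization and 1200 with the title code, and 223 to 823 without 1 library. For the difference from IM (387 calls), the values were 116 with a pseudocount of 0.1 TPM, 191 with a filter of 10 TPM, 766 rescaled to the same sum, 764 rescaled without Rn45s and Lars2, and 63 to 345 without 1 library. For the difference from AM (703 calls), they were 450 with no filter, 1253 with array weights and 279 to 793 without 1 library. Inmt turned to 1.12 with the title code. Clec1b, not called at 0.12, was -0.81 with a pseudocount of 0.1 TPM, -0.36 with no filter and with quantile normalization, -0.38 rescaled to the same sum, -0.68 rescaled without Rn45s and Lars2, and -0.18 to 0.42 without 1 library. Both sides of 6h against 2h have the same title code, so the covariate left the estimates of that comparison as they were (median -0.08). The median standard error there was 0.37 with the covariate and 0.43 without it. The cause of the other shifts was not tested. With title letters as a replicate block the 4 comparisons gave 2566, 719, 381 and 687 calls. Ticam1, Apoe and Inmt lost their call for 6h against 0h under the block. Deviations of libraries with the same letter correlated at -0.165 to 0.0836 between iMo groups. With 2 libraries in each iMo group this cannot show whether libraries of the same letter were prepared together. Where 1 library was left out, the lone library of its group was assumed to vary like the other groups. Read depth is unknown, so no limit on low genes can be set.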
